A study of Mus musculus with 10 samples.

Results

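The 9 genes described here, Piwil2, Mov10l1, Ddx4, Asz1, Tdrkh, Tdrd1, Mael, Dazl and Tex101, belong to the piRNA pathway or are otherwise germ cell genes. They were chosen with earlier results of these data known. Their probes were taken by name, as those whose gene name on the array is one of these symbols. Each gene was found once, on 1 probe with 1 spot, and all 9 were among the 28192 genes tested. They were measured in mouse embryonic stem (ES) cells that were diploid or carried 3 copies of 1 autosome instead of 2. The diploid control (WT) was AB1, a male line, at passages 18 and 20. The trisomic lines were Ts6 (chromosome 6, passages 9 and 18), Ts8 (chromosome 8, passages 10 and 13), Ts11 (chromosome 11, passages 8 and 11) and Ts15 (chromosome 15, passages 11 and 14), of strain 129 S7/SvEvBrd. Each group was 1 line with 2 arrays, called biological replicates by the submitters and taken at different passages, so p-values measure the spread between passages of a line, not between independent lines of a karyotype. The labels give neither the sex nor the parent of the trisomic lines. All cells were grown without any other treatment on irradiated SNL76/7 fibroblast feeder cells, which were depleted by settling before RNA extraction.

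piRNAs are small RNAs that guide PIWI proteins to transposon transcripts in germ cells, where the transposons are then cut or silenced. Their precursors are processed at the surface of mitochondria and in nearby granules, called nuage or intermitochondrial cement, by RNA helicases, nucleases and Tudor-domain scaffold proteins. Most of these genes are active mainly in the germline, and in ES cells and somatic tissue many germline genes are held low by DNA methylation and by repressor complexes, among them a noncanonical Polycomb complex whose subunits include MGA with MAX, which bind E-box sequences, and E2F6, which binds E2F-type sequences.

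The annotated promoters are given first because these are the sequences on which such repressors are known to act. A promoter window of 300 bases (250 before and 50 after the start of transcription, RefSeq, GRCm38.p6) was found for 8 of the 9 genes, all but Piwil2. The E-box searched was CACGTG, which reads the same on both strands, and the E2F-type sequence was GCGGGA or its reverse complement TCCCGC; no matches of the 2 motifs overlapped. Of all 32851 mouse promoter windows, 7.15% held the E-box and 19.98% the E2F-type sequence. Among the 8 genes, 4 held an E-box (Tdrd1, Ddx4, Mael and Mov10l1) and 2 held an E2F-type sequence (Ddx4 and Mael). For Tdrd1 the first of 3 annotated starts was counted, and the window of the third held neither motif. The 250 bases before the start are printed on the strand of the gene, 5′ to 3′, with motif matches in capitals. They are given for the 4 genes with a match and for Asz1 and Tdrkh, which changed in several lines and held neither motif. Tex101, called in Ts8, Ts11 and Ts15, and Dazl also held neither motif and are not printed. The stretches are chr19:56825959-56826208 (plus strand, the first of 3 annotated starts) for Tdrd1, chr13:112652311-112652560 (minus) for Ddx4, chr1:166238745-166238994 (minus) for Mael, chr15:88982744-88982993 (plus) for Mov10l1, chr6:18109062-18109311 (minus) for Asz1 and chr3:94412994-94413243 (plus) for Tdrkh.
Tdrd1: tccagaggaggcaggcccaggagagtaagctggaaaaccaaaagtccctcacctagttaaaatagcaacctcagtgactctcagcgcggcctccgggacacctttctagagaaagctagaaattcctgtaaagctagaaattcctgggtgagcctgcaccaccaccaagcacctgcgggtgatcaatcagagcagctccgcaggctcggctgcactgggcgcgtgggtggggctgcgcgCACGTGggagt
Ddx4: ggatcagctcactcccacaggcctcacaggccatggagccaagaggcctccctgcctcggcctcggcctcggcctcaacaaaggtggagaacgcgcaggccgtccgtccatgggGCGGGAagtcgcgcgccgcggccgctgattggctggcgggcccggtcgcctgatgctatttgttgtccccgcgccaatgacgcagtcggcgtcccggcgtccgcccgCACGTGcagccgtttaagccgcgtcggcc
Mael: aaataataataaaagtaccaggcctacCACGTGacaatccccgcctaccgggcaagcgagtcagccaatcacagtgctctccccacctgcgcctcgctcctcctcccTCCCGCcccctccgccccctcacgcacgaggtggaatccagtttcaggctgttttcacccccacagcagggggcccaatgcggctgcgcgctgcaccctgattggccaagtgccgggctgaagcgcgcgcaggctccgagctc
Mov10l1: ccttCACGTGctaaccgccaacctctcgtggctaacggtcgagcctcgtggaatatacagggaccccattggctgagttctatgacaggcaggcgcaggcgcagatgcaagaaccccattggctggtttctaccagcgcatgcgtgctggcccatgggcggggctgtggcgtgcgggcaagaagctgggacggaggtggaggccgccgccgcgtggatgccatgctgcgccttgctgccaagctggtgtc
Asz1: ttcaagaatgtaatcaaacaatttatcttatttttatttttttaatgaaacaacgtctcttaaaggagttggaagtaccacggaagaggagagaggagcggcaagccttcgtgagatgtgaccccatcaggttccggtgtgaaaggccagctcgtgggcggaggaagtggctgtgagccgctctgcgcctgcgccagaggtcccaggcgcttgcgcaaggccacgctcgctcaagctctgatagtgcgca
Tdrkh: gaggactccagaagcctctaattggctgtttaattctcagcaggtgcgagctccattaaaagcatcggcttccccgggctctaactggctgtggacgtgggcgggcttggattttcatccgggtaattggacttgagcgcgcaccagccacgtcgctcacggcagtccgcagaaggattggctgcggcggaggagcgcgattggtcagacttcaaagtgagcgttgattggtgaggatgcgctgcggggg

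Counting the base just before the start as -1, the E-box lay at positions -11 to -6 in Tdrd1 and -29 to -24 in Ddx4. It lay farther upstream in Mael, at -223 to -218, and in Mov10l1, at -246 to -241. The E2F-type match of Ddx4 was at -136 to -131, and Mael had one at -143 to -138 and another just inside the transcript, outside the printed stretch. The 8 windows were also above the median of all windows in CpG dinucleotides. The share of windows with a lower ratio ran from 69.0% for Mov10l1 to 92.8% for Ddx4. The observed over expected CpG ratio was 0.96 for Tdrkh, 0.73 for Tdrd1, 0.78 for Asz1, 0.98 for Ddx4, 0.78 for Mael, 0.67 for Mov10l1, 0.80 for Dazl and 0.70 for Tex101, against a median of 0.38 over all windows. Both motifs contain a CG, and their shares above were taken over all windows, not over windows of like CpG ratio. A match is a description of the sequence and says nothing of whether a factor was bound in these cells. Likewise, the absence of a match says only that these letters are not in the window.

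**Figure D1:**
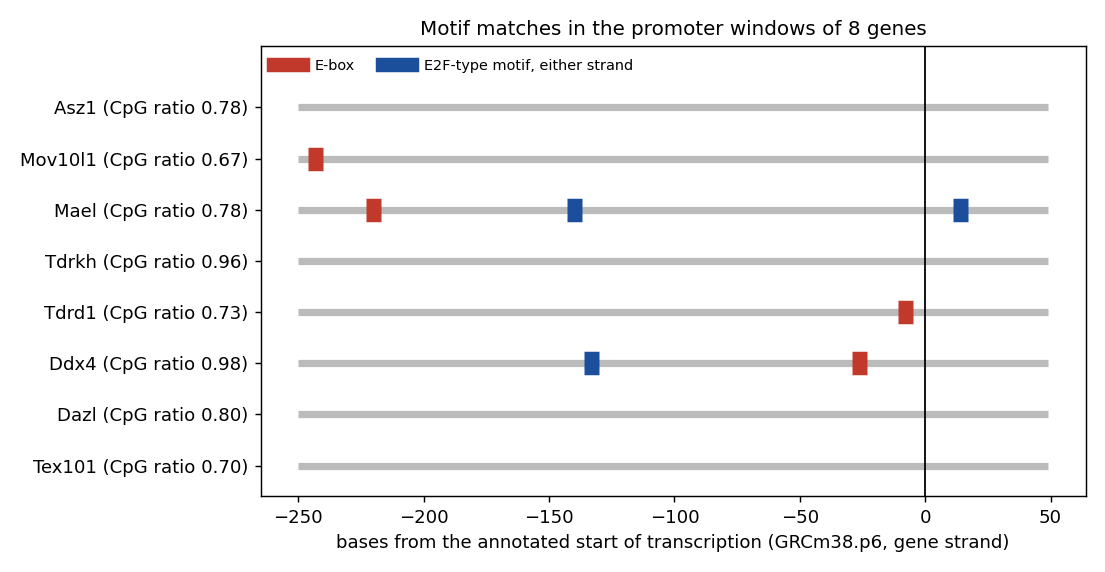
Positions of the E-box (either strand) and the E2F-type sequence in the promoter windows of 8 genes, in bases from the annotated start of transcription; grey bars are the windows and the CpG ratio stands beside each gene. Tdrd1, Ddx4, Mael and Mov10l1 hold an E-box, and Ddx4 and Mael also an E2F-type match.

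The arrays differed in ways that touch every value below. Of the noncontrol spots, 71.4% to 80.2% gave a signal well above background, depending on the array. Slide 2 held the pair of Ts15 arrays and slide 1 the other 8, with 1 group per slide column, so group cannot be told apart from slide for Ts15 or from slide column for the others. WT was at higher passages than 7 of the 8 arrays of the lines. With passage as a term in the fit, only 2 of the 13 calls of these genes in a line against WT held, those of Asz1 in Ts6 and in Ts15. All 16 ES cell markers, among them Pou5f1, Sox2 and Nanog, were above background on both arrays of every group. Against WT 1 of them was called, Tfcp2l1, lower in Ts8 by 0.64 on the log2 scale.

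Levels are given as log2 signal relative to the 75th percentile of the same array, so that a level below 0 lies under that percentile. All 9 genes were well above background on all 10 arrays. The level of one probe is not comparable with that of another, and the order below follows the genes' roles. Differences are line minus WT on the log2 scale, with the standard error (SE) of the fit, and a call is an adjusted p under 0.05 in limma (Benjamini-Hochberg over all 28192 genes). The 4 comparisons with WT share the same 2 WT arrays, so they are not independent of each other.

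Set against WT, 1 of the 9 genes rose and none fell in Ts6. In Ts8, 5 rose and none fell. In Ts11, 2 rose and none fell, and in Ts15, 4 rose and 1 fell. For the same 4 comparisons, 4.44%, 2.07%, 4.03% and 2.58% of all genes were called higher, and 4.6%, 1.45%, 4.1% and 4.86% lower. Because the 9 genes were chosen with earlier results of these data known, the counts are a description and no test of an excess. By unadjusted p under 0.05 in limma, 1 of the 9 was lower in Ts6, 1 in Ts8 and 0 in Ts11. The median difference of the 9 genes was 0.40 for Ts6, 0.78 for Ts8, 0.50 for Ts11 and 0.41 for Ts15, beside medians of all genes between -0.01 and 0.04. No gene was called in all 4 lines, and Dazl and Mael were called in none. For the mean of the 4 lines against WT, 3 of the 9 rose (Tdrkh, Tdrd1 and Tex101) and none fell (0 at unadjusted p under 0.05 in limma), where 1.9% of all genes were called higher and 1.95% lower. These 3 calls were lost without either WT array and with the passage term, and each also without 1 array of a line or more; that of Tdrkh was also lost without the filter on dim probes.

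Many of these calls depended on the arrays in the fit. Fitting only the arrays compared ended all 5 calls in Ts8 against WT, that of Tex101 in Ts11 and that of Tdrd1 in Ts15. Between lines it ended the calls of Tdrkh, Ddx4, Mael and Tex101 in Ts6 against Ts8, of Tex101 in Ts6 against Ts11, of Tdrkh, Tdrd1, Ddx4 and Mov10l1 in Ts8 against Ts11 and of Ddx4 in Ts8 against Ts15. The passage term is given above for the calls against WT, and other settings that ended a call are named with the gene.

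**Figure D2:**
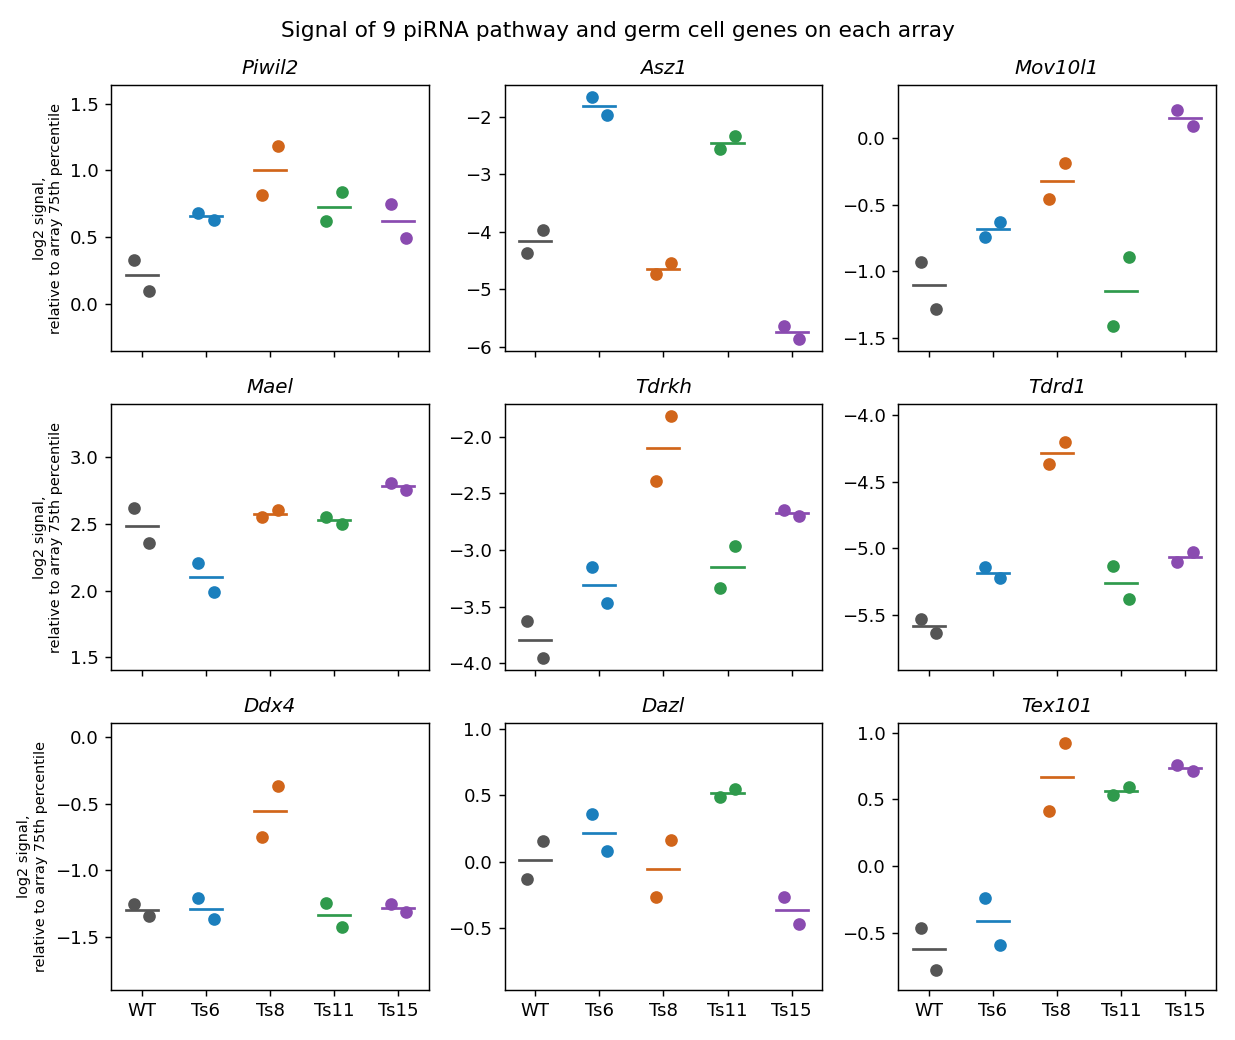
Log2 signal relative to the 75th percentile of the array (vertical axis) for each of the 9 genes, with 1 point per array and a line at the mean of each group of 2 arrays. Scales differ between panels; Asz1 is highest in Ts6 and lowest in Ts15, and Ddx4 stands above the other groups in Ts8.

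Piwil2 encodes the PIWI protein MILI, which binds piRNAs and cuts transposon transcripts. Piwil2 read 0.33 and 0.10 on the WT arrays, 0.68 and 0.63 on those of Ts6, 0.82 and 1.19 on those of Ts8, 0.62 and 0.84 on those of Ts11 and 0.75 and 0.49 on those of Ts15. Every array of the lines lay above both WT arrays. The rise was called in Ts8, at 0.79 ± 0.17 (SE, n = 2 against 2; adjusted p = 0.049), a 1.73-fold difference. In the other lines the differences were 0.44 in Ts6, 0.52 in Ts11 and 0.41 in Ts15, with adjusted p from 0.10 to 0.18. No pair of lines differed by the test in Piwil2, the widest gap being 0.38 ± 0.17 between Ts8 and Ts15 (adjusted p = 0.15). The call in Ts8 is at the edge of the threshold and was lost without either WT array or Ts8 replicate 2, with array medians as the scaling, without the filter on dim probes, on slide 1 alone and with the replicate block (adjusted p up to 0.22, called in 8 of 17 fits).

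Mov10l1 encodes an RNA helicase that binds piRNA precursors and is needed to feed them into processing. It lies on chromosome 15, which is present in 3 copies in Ts15. Mov10l1 read -0.93 and -1.28 on the WT arrays, -0.74 and -0.63 on those of Ts6, -0.45 and -0.19 on those of Ts8, -1.41 and -0.89 on those of Ts11 and 0.21 and 0.09 on those of Ts15. The Ts15 arrays were higher than the other 8 arrays, Ts8 and Ts6 came next, and Ts11 overlapped WT. Against WT the difference in Ts15 was 1.26 ± 0.20 (SE; adjusted p = 0.013), a 2.39-fold rise, against a log2(3/2) of 0.58 for 3 copies over 2. That call was lost without WT replicate 2 or either Ts15 array (adjusted p up to 0.070), with differences from 1.08 to 1.43 over all alternatives. Set against the other 8 arrays together, Ts15 was higher by 0.97, and the exact two-sided permutation test of 2 arrays against 8 gave p = 0.022, the smallest that its 45 splits can give. That test treats arrays as exchangeable, although each 2 are passages of 1 line; over whole lines no p below 0.2 is possible. It became 0.056 without WT replicate 1 or Ts11 replicate 2, and with 1 Ts15 array the test cannot go below 0.11. Between lines, Ts15 exceeded Ts11 by 1.30 (adjusted p = 0.0063), which held under every alternative, and Ts6 by 0.84 (adjusted p = 0.027), which was lost without any 1 of these 4 arrays. Ts8 exceeded Ts11 by 0.83 (adjusted p = 0.047), called in 6 of 17 fits. That call was lost without either Ts8 array or Ts11 replicate 1, with quantile normalization, array medians, the series table, the passage term or the replicate block, without the filter on dim probes and on slide 1 alone (adjusted p up to 0.22). The difference in Ts8, where chromosome 15 is not trisomic, was 0.78 ± 0.20 and was not called (adjusted p = 0.071).

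Of the 1105 tested genes on chromosome 15, 19 had a larger difference than Mov10l1 in Ts15, and the median of the chromosome there was 0.19 beside -0.01 for the autosomes outside it. The probe of Mov10l1 is at chr15:88884717-88884776 on mm9. Of the 3 tested genes on either side of it, 1 was called higher in Ts15 and 1 lower. The one called higher is a probe with no gene name at chr15:88810233-88810292, with 1.18 ± 0.23 (adjusted p = 0.025). The one called lower is 1810021B22Rik, at -1.38 ± 0.18 (adjusted p = 0.0068), above background on 1 of the Ts15 arrays. Mlc1, a membrane protein gene of astrocytes just before the unnamed probe, had 1.26 ± 0.31 (adjusted p = 0.054), and the pannexin gene Panx2, the nearest on the other side, had 0.45 ± 0.18 (adjusted p = 0.17). Ttll8, on the side of Mlc1, had -0.55 ± 0.14 (adjusted p = 0.055), and 9030419F21Rik, on the side of Panx2, had 0.08 ± 0.11 (adjusted p = 0.69). In Ts8 the differences of Mlc1 and of the unnamed probe were 0.84 and 0.79, beside 0.78 for Mov10l1. Those of the other neighbours in Ts8 were 0.21 for Ttll8, -0.11 for Panx2, -0.45 for 1810021B22Rik and -0.17 for 9030419F21Rik. Neither Mov10l1 nor any of these neighbours was called in Ts8.

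**Figure D3:**
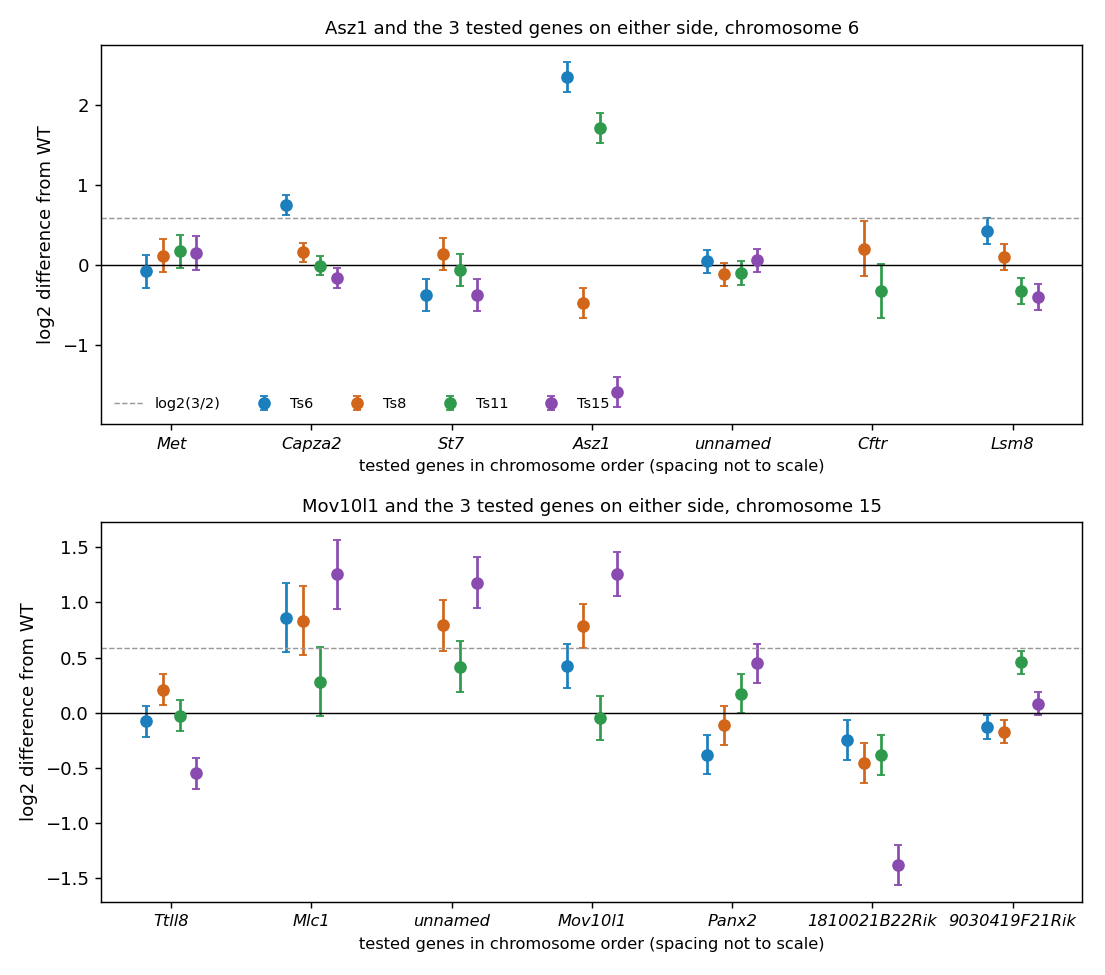
Log2 difference from WT (vertical axis, with the SE of the fit) of Asz1 and Mov10l1 and of the 3 tested genes on either side, in chromosome order; colours are the 4 lines and the dashed line is log2(3/2). Points are left out where neither array of the line was above background (Cftr in Ts6 and Ts15, the unnamed chromosome 15 probe in Ts6), and no plotted neighbour of Asz1 was called in Ts11 or Ts15.

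Ddx4 encodes VASA, an RNA helicase of nuage that is widely used to mark germ cells. Ddx4 read -1.25 and -1.35 on the WT arrays, -1.21 and -1.37 on those of Ts6, -0.75 and -0.37 on those of Ts8, -1.25 and -1.43 on those of Ts11 and -1.25 and -1.31 on those of Ts15. Both Ts8 arrays lay above all the others, and the remaining 8 arrays spanned from -1.43 to -1.21. The difference of Ts8 from WT was 0.74 ± 0.15 (SE; adjusted p = 0.044), a 1.67-fold rise. Ts8 also exceeded Ts6 by 0.73 (adjusted p = 0.019), Ts11 by 0.78 (adjusted p = 0.020) and Ts15 by 0.73 (adjusted p = 0.018). The shares of all genes called in these 3 comparisons, in the same direction, were 7.42%, 4.52% and 11.6%. The call against WT was lost without WT replicate 1, WT replicate 2 or Ts8 replicate 2, with array medians, without the filter on dim probes, on slide 1 alone and with the replicate block (adjusted p up to 0.21, called in 8 of 17 fits), and those against the 3 lines were lost without Ts8 replicate 2 or either array of the other line.

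Asz1 had the widest range of the 9 genes, 4.21 on the log2 scale between its highest and lowest array. It encodes GASZ, an ankyrin-repeat protein anchored in the outer membrane of mitochondria that holds piRNA processing factors there. It lies on chromosome 6, which is present in 3 copies in Ts6. Asz1 read -4.37 and -3.96 on the WT arrays, -1.66 and -1.98 on those of Ts6, -4.74 and -4.55 on those of Ts8, -2.57 and -2.34 on those of Ts11 and -5.64 and -5.87 on those of Ts15. The 5 groups did not overlap: Ts6 was highest, followed by Ts11, WT, Ts8 and Ts15. In that order, neighbouring groups that did not differ by the test were Ts6 and Ts11 (0.64 ± 0.19, adjusted p = 0.082) and Ts8 and WT (-0.48 ± 0.19, adjusted p = 0.17). The 60-base probe behind these values spans chr6:18005508-18021991 on mm9, minus strand, a stretch of 16484 bases, so it joins separate exons and reads spliced transcript.
Asz1 probe: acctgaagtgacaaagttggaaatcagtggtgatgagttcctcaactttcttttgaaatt

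Against WT, Asz1 rose by 2.35 ± 0.19 in Ts6 (SE; adjusted p = 0.00064), which is 5.11-fold, and by 1.72 ± 0.19 in Ts11 (adjusted p = 0.0036), which is 3.28-fold. It fell by 1.59 in Ts15 (SE 0.19; adjusted p = 0.0046), which is 3.00-fold. The calls in Ts6 and Ts15 held under every alternative tried, with differences from 2.00 to 2.56 and from -1.79 to -0.81, the last with normexp background correction, and that in Ts11 was lost with passage as a term (adjusted p = 0.13). The lowest signals called well above background were -6.14 and -6.36 on the Ts15 arrays, close under the level of Asz1 there. Compared with the other 8 arrays together, Ts6 was higher by 2.44. Of the 45 splits, 2 differed by at least as much, the observed one and that of the 2 Ts15 arrays, which were lowest. The exact two-sided permutation test thus gave p = 0.044, with the same limit that arrays of a line are not independent of each other. It became 0.056 without either WT array, either Ts8 array or Ts15 replicate 1, and 0.11, the smallest possible, without either Ts6 array. Between lines, Asz1 in Ts6 exceeded Ts8 by 2.83 (adjusted p = 0.00021) and Ts15 by 3.94 (adjusted p = 0.00016), and Ts11 exceeded Ts15 by 3.30 (adjusted p = 0.00025). Ts8 minus Ts11 was -2.19 (adjusted p = 0.00095). These 4 held under every alternative. The difference of 1.11 between Ts8 and Ts15 (adjusted p = 0.0098) became 0.47 and was not called with normexp, and it was not called without Ts8 replicate 2 or Ts15 replicate 2.

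On chromosome 6, 10 of 1456 tested genes had a larger difference than Asz1 in Ts6. The median of the chromosome was 0.15, beside -0.02 for the other autosomes. In Ts11, where chromosome 6 is not trisomic, 7 genes of the chromosome lay above Asz1, and in Ts15 1.10% of them lay below it. Of the 3 tested genes on either side, Capza2, which encodes a subunit of the actin capping protein, rose in Ts6 by 0.75 ± 0.12 (adjusted p = 0.0098). The receptor gene Met (-0.08), St7 (-0.38), an unnamed transcript (0.05) and the splicing-related gene Lsm8 (0.42) were not called in Ts6. None of these 5 neighbours was called in Ts11 or Ts15. The chloride channel gene Cftr was above background on both arrays of WT and Ts8 and on 1 of Ts11, but on no array of Ts6 or Ts15, where its signal gives only a bound.

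Tdrkh encodes a mitochondrial Tudor and KH domain protein that takes part in trimming the ends of piRNA intermediates. Tdrkh read -3.63 and -3.96 on the WT arrays, -3.15 and -3.47 on those of Ts6, -2.39 and -1.82 on those of Ts8, -3.34 and -2.97 on those of Ts11 and -2.65 and -2.70 on those of Ts15. All 8 arrays of the lines lay above both WT arrays, with Ts8 highest and Ts15 next. The rise was called in Ts8, at 1.69 ± 0.23 (SE; adjusted p = 0.020) or 3.22-fold, and in Ts15, at 1.12 ± 0.23 (adjusted p = 0.029) or 2.17-fold. The differences of 0.48 in Ts6 and 0.64 in Ts11 were not called (adjusted p = 0.24 and 0.13). Ts8 exceeded Ts6 by 1.21 (adjusted p = 0.015) and Ts11 by 1.05 (adjusted p = 0.032), while Ts8 and Ts15 differed by 0.57 ± 0.23, which was not called (adjusted p = 0.12). Without Ts8 replicate 2 the calls of Ts8 against WT, Ts6 and Ts11 were lost, as was that against WT without WT replicate 2 and those against Ts6 and Ts11 without either array of the other line. That against Ts11 was called in 8 of 17 fits, and was also lost with the series table, the passage term or the replicate block, without the filter on dim probes and on slide 1 alone. The call in Ts15 was lost without any 1 of its own or the WT arrays or without the filter (adjusted p up to 0.17).

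Tdrd1 encodes a Tudor scaffold protein of intermitochondrial cement that binds methylated arginines of MILI. Tdrd1 read -5.53 and -5.64 on the WT arrays, -5.14 and -5.23 on those of Ts6, -4.37 and -4.20 on those of Ts8, -5.14 and -5.38 on those of Ts11 and -5.10 and -5.03 on those of Ts15. The Ts8 arrays were highest, the other lines lay between them and WT, and no line overlapped WT. Some of these levels lay near background. The lowest signals called well above it were -5.92 and -5.89 on the Ts6 arrays and -5.98 on Ts11 replicate 2. In Ts8 the difference from WT was 1.30 ± 0.12 (SE; adjusted p = 0.012), a 2.47-fold rise, and in Ts15 it was 0.52 ± 0.12 (adjusted p = 0.045), a 1.43-fold rise. Over all alternatives the difference ran from 0.90 to 1.39 in Ts8 and from 0.47 to 0.78 in Ts15. The differences in Ts6 (0.40) and Ts11 (0.33) were not called, with adjusted p of 0.088 and 0.15. Ts8 also exceeded Ts6 by 0.90 (adjusted p = 0.0043), Ts11 by 0.97 (adjusted p = 0.0042) and Ts15 by 0.78 (adjusted p = 0.0078). Of the 9 genes, Tdrd1 was the one whose higher level in Ts8 than in Ts6 and Ts15 was called under every alternative tried, although Ts8 minus Ts15 was 0.39 with normexp. The call in Ts8 against WT was lost without Ts8 replicate 2, and the call in Ts15 without any 1 of its own or the WT arrays, without the filter on dim probes, with the replicate block and with the trended robust variance (adjusted p up to 0.24, called in 7 of 16 fits).

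Mael encodes Maelstrom, a nuage protein needed to silence transposons in the male germline. Mael read 2.62 and 2.35 on the WT arrays, 2.21 and 1.99 on those of Ts6, 2.55 and 2.60 on those of Ts8, 2.55 and 2.50 on those of Ts11 and 2.81 and 2.75 on those of Ts15. Ts6 was lowest and Ts15 highest, and neither overlapped WT, while Ts8 and Ts11 lay within the WT range. Mael was called in no line against WT: the differences were -0.39 ± 0.13 in Ts6 (adjusted p = 0.11) and 0.30 ± 0.13 in Ts15 (adjusted p = 0.20). Between lines, Ts6 was below Ts8 by 0.48 (adjusted p = 0.047) and below Ts15 by 0.68 (adjusted p = 0.011). The first of these was lost without any 1 of the Ts6 or Ts8 arrays, with array medians or the passage term, without the filter on dim probes and on slide 1 alone (adjusted p up to 0.20, called in 8 of 17 fits), and the second without Ts6 replicate 2 or either Ts15 array (adjusted p up to 0.063).

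Dazl, an RNA-binding protein gene required for germ cell development, was called in no line against WT. Dazl read -0.13 and 0.16 on the WT arrays, 0.36 and 0.08 on those of Ts6, -0.27 and 0.16 on those of Ts8, 0.49 and 0.54 on those of Ts11 and -0.27 and -0.46 on those of Ts15. Ts11 lay above and Ts15 below the WT arrays, and Ts6 and Ts8 overlapped them. Against WT the differences ran from -0.38 ± 0.18 in Ts15 to 0.50 ± 0.18 in Ts11 (adjusted p = 0.25 and 0.13). Ts11 exceeded Ts15 by 0.88 ± 0.18 (adjusted p = 0.019), the single call for Dazl, which was lost without any 1 of these 4 arrays (adjusted p up to 0.10).

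Tex101, which encodes a glycoprotein anchored in the germ cell membrane and needed for sperm function, is outside the piRNA pathway. Tex101 read -0.47 and -0.78 on the WT arrays, -0.24 and -0.59 on those of Ts6, 0.41 and 0.92 on those of Ts8, 0.54 and 0.59 on those of Ts11 and 0.76 and 0.71 on those of Ts15. The arrays fell into a low range for WT and Ts6, which overlapped, and a high range for Ts8, Ts11 and Ts15. The rise against WT was 1.29 ± 0.20 in Ts8 (SE; adjusted p = 0.026), 1.19 ± 0.20 in Ts11 (adjusted p = 0.015) and 1.36 ± 0.20 in Ts15 (adjusted p = 0.0098), or 2.45-, 2.28- and 2.56-fold. Ts6, at 0.21 ± 0.20 from WT, was not called, and it was below Ts8 by 1.08 (adjusted p = 0.014), Ts11 by 0.98 (adjusted p = 0.030) and Ts15 by 1.15 (adjusted p = 0.0084). Without WT replicate 2 the 3 calls against WT were lost (adjusted p up to 0.18 in Ts8, 0.24 in Ts11 and 0.090 in Ts15 over all alternatives), as was each without an array of its own line, either of the pair in Ts11 and Ts15 and replicate 2 in Ts8. The call in Ts8 was also lost without WT replicate 1, without the filter on dim probes and on slide 1 alone. Of the differences between lines, that of Ts6 below Ts15 held under every alternative tried. The call against Ts8 was lost without Ts6 replicate 2 or Ts8 replicate 2, and that against Ts11 without any 1 of the Ts6 or Ts11 arrays, without the filter, with the passage term and on slide 1 alone.

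**Figure D4:**
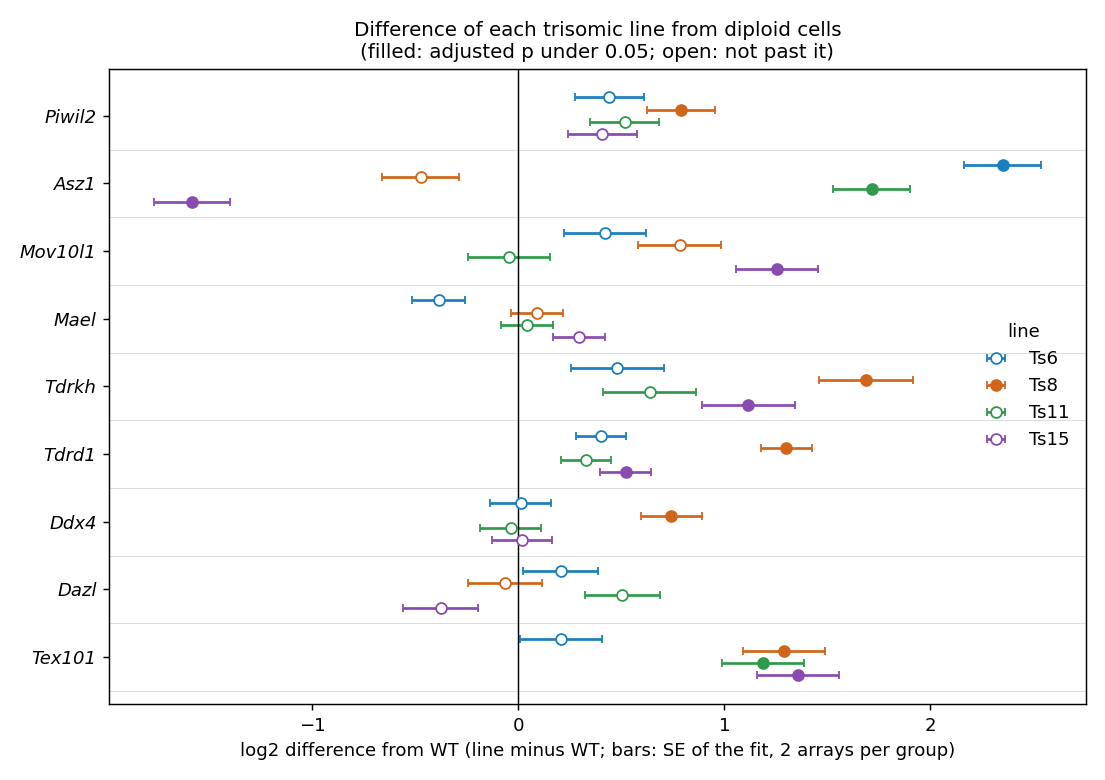
Log2 difference of each trisomic line from WT (horizontal axis) for the 9 genes, with the SE of the fit; filled points have an adjusted p under 0.05 and open points do not. Asz1 lies at 2.35 in Ts6, 1.72 in Ts11 and -1.59 in Ts15, while Tdrkh, Tdrd1 and Tex101 lie to the right of 0 in all 4 lines.

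Counted over the lines themselves, with no WT array in the comparison, the most calls, 6 of 9, were between Ts6 and Ts8. In Ts6 against Ts8, 1 gene was higher and 5 were lower, where 6.27% and 7.42% of all genes were called. In Ts6 against Ts11, 0 were higher (2 at unadjusted p under 0.05 in limma) and 1 was lower, where 3.81% and 3.5% of all genes were called. In Ts6 against Ts15, 1 was higher and 3 were lower, beside 10.4% and 7.85% of all genes. In Ts8 against Ts11, 4 were higher and 1 was lower, beside 4.52% and 3.3%. In Ts8 against Ts15, 3 were higher and 0 lower (1 at unadjusted p under 0.05), beside 11.6% and 5.57%, and in Ts11 against Ts15, 2 were higher and 1 was lower, beside 9.27% and 5.77%.

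Across the 10 arrays the genes did not all follow the same pattern, as far as 10 arrays of 5 lines can describe. Arrays of the same line are not independent of each other. The Pearson correlation was 0.90 between Tdrkh and Tdrd1, 0.90 between Tdrd1 and Ddx4, and 0.87 between Tdrkh and Piwil2. It was 0.83 between Asz1 and Dazl, and -0.80 between Asz1 and Mael. For Tdrkh the genes most alike over the 10 arrays were the dicarboxylate transporter gene Slc13a3 (0.98) and, on chromosome 8, the fatty acid hydroxylase gene Fa2h (0.95). For Tdrd1 they were Plpbp (0.96) and the deubiquitinase gene Otud4 (0.96), both on chromosome 8. Ddx4 was most like Cnot1 (0.98), a scaffold of the CCR4-NOT complex on chromosome 8, and Trim59 (0.98). For Piwil2 they were the neuropeptide gene Nmu (0.96) and Cog4 (0.96), a Golgi trafficking gene on chromosome 8.

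Asz1 was most like Saxo1 (0.99), whose differences from WT were 1.25, -0.20, 0.97 and -0.82 in the order Ts6, Ts8, Ts11, Ts15, and next most like Ccdc181 (0.98). For Mov10l1 they were Dennd6b (0.97), at chr15:89015627-89015686 on the same chromosome, and Zfp202 (0.96). For Mael they were the transcription factor gene Tcf21 (0.95) and the noncoding RNA gene Gas5 (0.94), for Dazl Olfml1 (0.94) and the cilium gene Ift81 (0.94), and for Tex101 the nitric oxide synthase gene Nos2 (0.95) and the DNA polymerase subunit gene Pole3 (0.95). These genes were picked for the correlation from all genes tested, so its size is a description.

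Of 27 other genes of the piRNA pathway, 25 were tested. This list and the wider lists below were also chosen with earlier results of these data known, so their counts are a description. In Ts6, 8 rose and 2 fell, with a median difference of 0.36 over the list, where 4.44% of all genes were called higher and 4.6% lower. The 3 that rose most were the exonuclease-domain gene Exd1 (1.44 ± 0.21), the Tudor gene Stk31 (1.39 ± 0.25), which lies on chromosome 6, and the Tudor gene Rnf17 (1.33 ± 0.33). Gtsf1l (-2.65 ± 0.27) and the co-chaperone gene Fkbp6 (-1.08 ± 0.16) fell. In Ts8, where 5 of the 9 genes above rose, 1 of these 25 rose and 0 fell (limma; 2 lower at unadjusted p under 0.05), with a median of 0.01, where 2.07% of all genes were called higher and 1.45% lower. The 1 was Tex15, a gene needed for transposon silencing that lies on chromosome 8, at 1.45 ± 0.25.

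In Ts11, 4 of the 25 rose and 1 fell, with a median of 0.26, beside 4.03% and 4.1% of all genes. Tex15 rose by 1.35, the nuage gene Gpat2 by 0.88 and Tex19.1, on chromosome 11, by 0.87, while the arginine methyltransferase gene Prmt5 fell by 0.53. In Ts15, 0 rose (5 at unadjusted p under 0.05 in limma) and 2 fell, the PIWI gene Piwil4 by 0.57 and the mitochondrial nuclease gene Pld6 by 0.55, with a median of 0.16, beside 2.58% and 4.86% of all genes.

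Of 32 other germ cell genes, 31 were tested, and the shares of all genes called higher and lower are again 4.44% and 4.6% for Ts6, 2.07% and 1.45% for Ts8, 4.03% and 4.1% for Ts11, and 2.58% and 4.86% for Ts15. In Ts6, 8 rose and 1 fell (median 0.31), led by Dppa3 (3.05 ± 0.35), a maternal and primordial germ cell factor on chromosome 6, the meiotic synapsis gene Tex12 (1.89 ± 0.20) and the oocyte transcription factor gene Figla (1.57 ± 0.16), also on chromosome 6, while Boll fell by 0.52. In Ts8, 4 rose and 1 fell (median 0.25). The 3 that rose most were the meiotic gene Tex11 (1.14), the intercellular bridge gene Tex14 (1.06) and the spermatogonial transcription factor gene Sohlh1 (1.01), and the homeobox gene Rhox5 fell by 0.55. In Ts11, 10 rose and 1 fell (median 0.39), with Dppa3 at 3.22 ± 0.35, Rbm44 at 1.70 and Tex19.2, on chromosome 11, at 1.53, and the RNA-binding protein gene Nanos3 fell by 1.19. In Ts15, 4 rose and 2 fell (median 0.21): Figla (2.14 ± 0.16), Sohlh1 (0.85) and Tfap2c (0.51), a transcription factor of germ cell specification, were the highest, and Mageb4 fell by 0.87 and Sohlh2 by 0.55.

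Of 23 genes of the complexes known to hold germline genes silent, all tested, 0 were called in Ts6 and 0 in Ts8 (limma; at unadjusted p under 0.05, 3 higher and 1 lower in Ts6, and 3 higher and 5 lower in Ts8). The DNA methyltransferase gene Dnmt3b fell in Ts11 by 0.65 ± 0.15 (adjusted p = 0.045) and the Polycomb gene Ring1 in Ts15 by 0.57 ± 0.11 (adjusted p = 0.021). These 2 calls, 1 of 23 in each line, are near the 4.1% and 4.86% of all genes called lower there. Their median difference ran from -0.08 in Ts11 to 0.05 in Ts8.

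**Figure D5:**
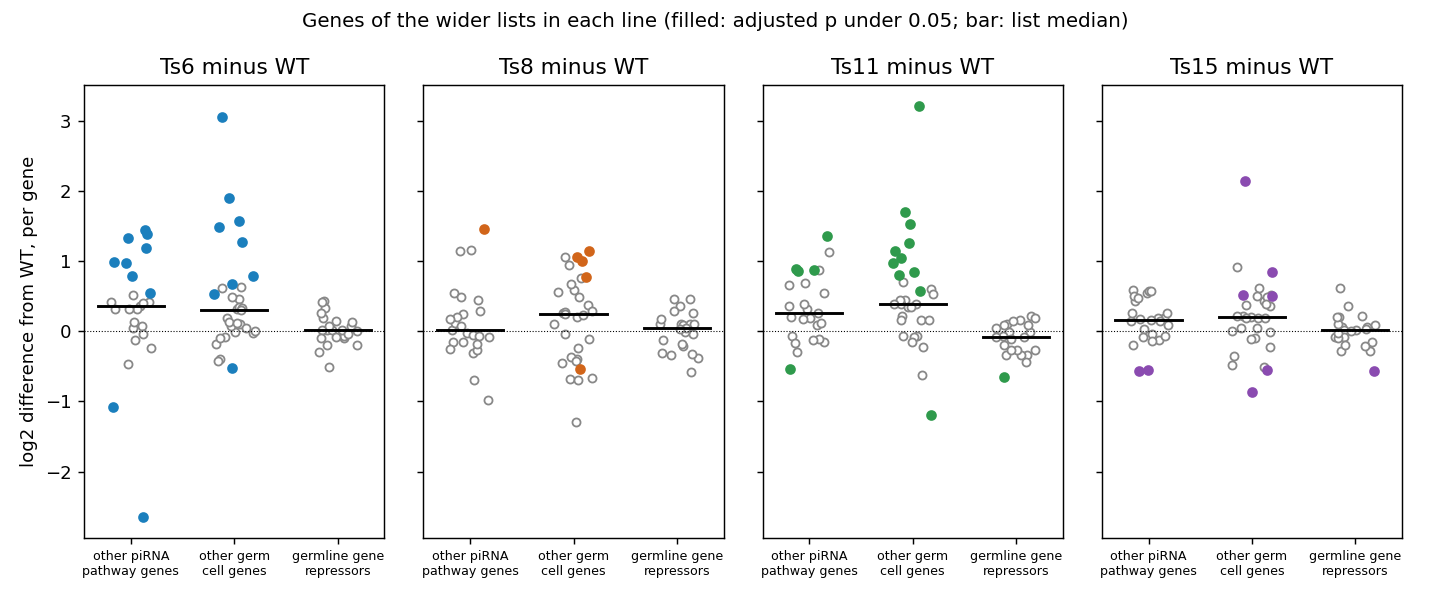
Log2 difference from WT (vertical axis) of each tested gene of the wider lists, by line; filled points have an adjusted p under 0.05 and bars are list medians. In Ts6 and Ts11 the medians of the other piRNA genes are 0.36 and 0.26, and those of the repressor genes lie between -0.08 and 0.05 in the 4 lines.

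The summed signals of markers of other cell types overlapped between some groups and not between others. The summed signal of the 8 primordial germ cell markers, in units of the 75th percentile, was 18.3 to 18.8 for WT and 18.7 to 18.9 for Ts6. It was 11.99 to 16.0 for Ts8, 17.3 to 20.1 for Ts11 and 20.6 for Ts15. Such a sum weighs the brightest probe most, here Ifitm3, with a mean log2 level of 3.25 in WT and 2.83 in Ts8. In Ts8 the sum was below WT, and 0 of the 8 were called by limma, with 1 higher and 5 lower at unadjusted p under 0.05. These 8 are also on the list of other germ cell genes, so their calls are the same ones given there: Dppa3 was called higher in Ts6 and Ts11, Tfap2c higher in Ts15 and Nanos3 lower in Ts11. The summed signal of the 22 tested markers of fibroblasts was 47.6 to 48.0 for WT, 34.8 to 42.6 for Ts6, 37.4 to 43.2 for Ts8, 40.4 to 48.1 for Ts11 and 51.6 to 59.3 for Ts15, and Postn and Fap were above background on neither Ts6 array. For 8 tested markers of somatic testis cells it was 18.3 to 22.1, 15.8 to 17.0, 17.4 to 19.7, 17.5 to 18.4 and 22.1 to 25.8 in the same order. Of those 8, Wt1 was lower by 1.602 in Ts6, 1.38 in Ts8 and 0.98 in Ts11, Inhbb lower by 1.42 in Ts8 and Cyp17a1 lower by 0.42 in Ts15, while Amh was higher by 0.78 in Ts6 and Gata4 higher by 1.37 in Ts15; these were all the calls on that list against WT in the 4 lines. The part of such cells in the results was not tested. In bulk RNA, more cells that express a gene and more transcript in each cell cannot be told apart.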

How the data were processed

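RNA of 10 samples, 2 for each of 5 lines, was measured on 1-colour Agilent mouse arrays. Per the file headers, the deposited intensity values (processed signal) came from Agilent Feature Extraction 10.7.3.1, and the grid places the probes on mm9. The deposited series table holds log2 values, normalized by the authors in a way not given in the sources used here, and served as an alternative. The file of Ts15 replicate 2 had passed through a spreadsheet (3 significant digits), so gene names came from WT replicate 1.

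Here each signal was put on the log2 scale relative to its array's 75th percentile. Of 55681 probes, 176 left only by flagged spots were dropped, and 43055 were kept because both arrays of some group exceeded background clearly (Agilent's flag). The probe with the highest mean stood for its gene, and 28192 genes were tested with limma 3.58.1 (R 4.3.3; 1 mean per group, 5 residual and 2.672 prior degrees of freedom, two-sided, Benjamini-Hochberg adjustment within each comparison). The fit was tested on simulated data. Named genes were the 9 members throughout, up to 3 called genes per direction, list and line, 3 tested neighbours on either side of Asz1 and Mov10l1, and the 2 genes most correlated with each member. The members and lists were chosen with earlier results of these data known. Alternatives were other background corrections, scalings, filters, probe choices, sample subsets, a passage term, the replicate number as a block, another variance model, the series table and leaving out each array. Same-numbered arrays deviated together with correlations from -0.10 to 0.39, so the numbers were not taken as pairs. Depth has no meaning for arrays; their number limits the precision. Exon annotation of the probes was not used here, and promoters (GRCm38.p6) and probes (mm9) were never compared by position.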

Additional observations from a re-analysis of the deposited data

Results flagged for a closer look

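Of 54 differences of the 9 genes between pairs of lines (9 genes in 6 pairs), 22 passed the test, which means that the 2 lines differ in their distance from WT. Since each line has 1 slide column or slide, these differences cannot be told apart from the position of the arrays. Values are first minus second line, log2.

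Asz1 accounted for 5 of them: 2.83 in Ts6 minus Ts8, 3.94 in Ts6 minus Ts15, -2.19 in Ts8 minus Ts11, 1.11 in Ts8 minus Ts15 and 3.30 in Ts11 minus Ts15. Its rise in Ts6 and Ts11 and its fall in Ts15 make it the one gene of the 9 called in opposite directions against WT.

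Ts8 was above another line for most of the next differences. Ts6 minus Ts8 was -1.21 for Tdrkh, -0.90 for Tdrd1, -0.73 for Ddx4, -0.48 for Mael and -1.08 for Tex101. Ts8 minus Ts11 was 1.05 for Tdrkh, 0.97 for Tdrd1, 0.78 for Ddx4 and 0.83 for Mov10l1. Ts8 minus Ts15 was 0.78 for Tdrd1 and 0.73 for Ddx4.

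The remaining differences involved Ts15 or Tex101. Ts6 minus Ts15 was -0.68 for Mael, -0.84 for Mov10l1 and -1.15 for Tex101. Ts11 minus Ts15 was -1.30 for Mov10l1 and 0.88 for Dazl. Ts6 minus Ts11 was -0.98 for Tex101.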

How the results depend on the processing

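Of 38 calls of the 9 genes over 11 comparisons, 10 held under every alternative tried: Asz1 in 6 comparisons (Ts6 and Ts15 against WT, Ts6 against Ts8 and Ts15, Ts11 against Ts8 and Ts15), Tdrd1 in Ts8 against Ts6 and Ts15, Tex101 in Ts6 against Ts15 and Mov10l1 in Ts11 against Ts15. None reversed. Apart from leaving out an array, 369 of 435 alternative values kept the call. Of 170 values with 1 array left out, 81 lost it.

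The number of genes called, of 9, moved by more than 1.5 times as follows; the causes were not tested. Smaller moves are left out, such as 6 for Ts8 against WT with normexp, with the strict filter and with the trended variance. Ts6 against WT (1) gave 2 with the trended robust variance, where the calls of all genes went from 2549 to 3118. Ts8 against WT (5) gave 3 with array medians, 2 without the filter on dim probes, 0 with only the arrays compared, 2 on slide 1 alone and 0 with passage (6 at unadjusted p under 0.05 in limma for each 0). The calls of all genes were 994, then 1027, 183, 0, 246 and 6 in the same order. Ts11 against WT (2) gave 1 with only the arrays compared and 0 with passage (2 unadjusted). Those of all genes were 2292, then 316 and 48. Ts15 against WT (5) gave 3 without the filter and 1 with passage, where the 2096 calls of all genes became 1280 and 449. The mean of lines (3) gave 5 with normexp, 5 with the trended variance and 0 with passage (5 unadjusted). For all genes the 1086 calls became 1234, 1627 and 2. Ts6 against Ts8 (6) gave 2 with only the arrays compared, where the 3860 calls of all genes became 1592. Ts6 against Ts11 (1) gave 2 with the series table, 2 with the trended variance, and 0 without the filter, with only the arrays compared, on slide 1 and with passage (3 unadjusted for each 0). In that order the 2061 calls of all genes became 2651, 2898, 1160, 543, 1425 and 1696. Ts8 against Ts11 (5) gave 1 with only the arrays compared, and 3 with the series table, without the filter, on slide 1 and with passage. Here the 2202 calls of all genes became 353, 2439, 1457, 1598 and 1638. With the replicate number as a block, Ts8 gave 3 against WT and 3 against Ts11, with 697 and 2243 calls of all genes.

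Leaving out 1 array gave 1 to 1 (Ts6), 0 to 5 (Ts8), 1 to 2 (Ts11), 1 to 3 (Ts15) and 0 to 4 (mean of lines) calls against WT. It gave 2 to 5 for Ts6 against Ts8, 0 to 0 for Ts6 against Ts11, 2 to 3 for Ts6 against Ts15, 2 to 4 for Ts8 against Ts11, 1 to 4 for Ts8 against Ts15 and 2 to 2 for Ts11 against Ts15. A lone array was assumed to vary like the other groups. The difference from the other arrays ran from 2.21 to 2.71 for Asz1 in Ts6 and from 0.88 to 1.06 for Mov10l1 in Ts15; with 1 array left in the line the exact permutation p cannot go below 0.11. For all genes, the 994 calls in Ts8 against WT became 6 with passage, 0 with only the arrays compared, 13 without Ts8 replicate 2 and 2067 with the trended variance, and the 1086 calls of the mean of lines became 2 with passage and 45 without WT replicate 2. Passage moves with slide row and differs between WT and the lines. The number of arrays, and for Asz1 in Ts15 and for Tdrd1 the closeness to background, limit what these values can show.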

Other observations

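Among the genes called on the wider lists, some that lie on a chromosome trisomic in 1 line, such as Tex15, Figla and Tex14, were called both there and in a line where that chromosome is diploid. Tex15, on chromosome 8, rose by 1.19 ± 0.25 in Ts6, by 1.45 ± 0.25 in Ts8 and by 1.35 ± 0.25 in Ts11. Figla, on chromosome 6, rose by 1.57 in Ts6, 0.78 in Ts8 and 2.14 in Ts15. Tex14, on chromosome 11, rose by 0.79 in Ts6, 1.06 in Ts8 and 1.04 in Ts11. Gtsf1, on chromosome 15 and a partner of PIWI proteins, rose in Ts6 by 0.98 ± 0.12 (adjusted p = 0.0029) and was not called in Ts15 (0.16, adjusted p = 0.46). Boll, a relative of Dazl on chromosome 1, fell in Ts6 by 0.52 and rose in Ts11 by 1.26. Tex15 in Ts6, Gtsf1, Boll in Ts11 and the other values here were chosen after they were seen, and the comparisons share the WT arrays.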
